A study of Homo sapiens with 6 samples.

Results

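The 10 transcripts described here are host genes of small nucleolar RNAs (snoRNAs): SNHG1, SNHG3, SNHG5, SNHG6, SNHG7, SNHG8, SNHG12, SNHG29, GAS5 and ZFAS1. They were taken by symbol from the 5187 genes listed in the files, and all 10 were found and passed the filter on low counts. They were chosen with the comparison of GABA-treated and control cells already known, so their levels and fold changes are given as a description. RNA was sequenced from 6 cultures of Huh7, an established human hepatocellular carcinoma line grown in DMEM with serum. The 3 control libraries came from cells without added GABA (gamma-aminobutyric acid) and the 3 GABA libraries from cells kept with it for 24 h. Each group holds biological replicates 1, 2 and 3, the dose and any vehicle are not stated in the labels, and all results rest on 1 line.

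A host gene of this kind carries snoRNAs in its introns. After splicing, the intron is linearised and trimmed to the mature snoRNA, which guides the chemical modification of ribosomal and other RNAs. Box C/D snoRNAs guide methylation of the ribose and box H/ACA snoRNAs guide conversion of uridine to pseudouridine. The spliced exons of these genes encode no long protein. Many of them start with a run of pyrimidines, the 5′ terminal oligopyrimidine (TOP) tract also found on ribosomal protein mRNAs, and several are known targets of nonsense-mediated decay (NMD), which removes RNAs on which ribosomes stop early. GAS5 was named for its rise in growth-arrested cells, and several of the others have been studied as long noncoding RNAs in liver cancer.

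Within the introns of the 10 genes, RefSeq places 38 snoRNA genes, of which 28 have SNORD (box C/D) symbols and 9 have SNORA (box H/ACA) symbols. GAS5 holds 11 and SNHG1 holds 9, whereas SNHG6 and SNHG8 hold 1 each. SNHG1, SNHG5, SNHG6, SNHG29 and ZFAS1 hold SNORD genes and no SNORA gene. SNHG3, SNHG7 and SNHG8 hold SNORA genes only, and SNHG12 and GAS5 hold both. To show what the spliced-out introns carry, 1 snoRNA of each family is printed from the GENCODE release 29 transcripts. SNORD49A lies in SNHG29 at chr17:16440036-16440106 (hg38, plus strand), with capitals for its TGATGA and CTGA boxes. SNORA24 lies in SNHG8 at chr4:118279190-118279320 (plus strand), with capitals for the ACA box that ends 3 bases before its 3′ end.
SNORD49A: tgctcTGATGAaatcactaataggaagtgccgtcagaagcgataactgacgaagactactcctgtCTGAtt
SNORA24: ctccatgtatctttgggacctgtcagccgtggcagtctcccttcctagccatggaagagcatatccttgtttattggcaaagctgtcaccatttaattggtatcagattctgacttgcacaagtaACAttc
The levels below are counts assigned to the host genes. Because some annotated transcripts retain introns, snoRNAs also lie within annotated exons (6 of 7 GENCODE snoRNAs in SNHG1 and 3 of 3 in SNHG29), and snoRNA genes on the same strand cover 15.3% of the exon length of SNHG1 and 14.2% of that of SNHG8. How reads on them were counted is not given in the sources used here. None of the snoRNAs that GENCODE places in these introns is among the listed genes.

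RefSeq promoters were matched for 9 of the 10 genes, all but SNHG6. The windows of 6 are printed because they show the sequence features that the genes share or lack near their starts. Each runs from 40 bases before the annotated start to the base 30 positions into the transcript (GRCh38.p14), and capitals mark the longest run of at least 6 C and T bases led by a C within 20 bases of the start. SNHG12 is at chr1:28581844-28581913 (minus strand), SNHG7 at chr9:136728155-136728224 (minus), SNHG8 at chr4:118278722-118278791 (plus), SNHG29 at chr17:16438947-16439016 (plus), ZFAS1 at chr20:49278602-49278671 (plus) and SNHG5 at chr6:85678704-85678773 (minus).
SNHG12: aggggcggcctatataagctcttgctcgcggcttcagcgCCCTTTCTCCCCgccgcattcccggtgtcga
SNHG7: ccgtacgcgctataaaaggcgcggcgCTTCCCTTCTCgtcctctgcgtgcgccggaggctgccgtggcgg
SNHG8: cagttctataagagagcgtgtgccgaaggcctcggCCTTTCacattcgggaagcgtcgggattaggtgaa
SNHG29: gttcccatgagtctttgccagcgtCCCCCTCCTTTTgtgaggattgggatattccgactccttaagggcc
ZFAS1: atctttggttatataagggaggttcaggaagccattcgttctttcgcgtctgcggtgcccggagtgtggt
SNHG5: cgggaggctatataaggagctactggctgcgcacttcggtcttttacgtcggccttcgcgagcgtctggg
A C-led run of this kind was found in 5 of the 9 windows, SNHG1 being the fifth, against 33.8% of 35116 promoters in the table. It was 12 bases long in SNHG12 and SNHG29, 11 in SNHG7 and 6 in SNHG1 and SNHG8. In SNHG1, SNHG7 and SNHG29 the run began at -19, -14 and -16 from the annotated start and ended before it. Those runs are thus outside the annotated transcript, unlike a TOP tract. In SNHG8 the run began at -5, so only its last base, at the start itself, lies in the annotated transcript. The run of SNHG12 began at -1 and went on into the transcript. ZFAS1 and SNHG5 read CTTTC and CTTTT from the annotated start itself, C-led runs of 5 bases that fall short of the minimum of 6. A window without capitals is thus not shown to lack a TOP tract. With a minimum of 4 bases 8 of 9 had a run (71.4% of all promoters), and with a minimum of 8 bases 3 of 9 did (15.5%). The letters TATAA were searched from 40 to 20 bases before the start, after the windows had been seen and only on the strand that reads like the transcript. They were found in 5 of 9: SNHG5, SNHG7, SNHG8, SNHG12 and ZFAS1. Of all promoters 3.82% held them there. These matches describe letters around 1 annotated start per gene. For GAS5 and SNHG3 the RefSeq window lies wholly upstream of the GENCODE start, and neither feature was found in it.

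The deposited values are read counts per gene, and levels are given as CPM, counts scaled by TMM to a common total on the listed genes, as mean ± SD over 3 libraries. Totals on the listed genes were 7702666 to 8392945 counts per library; these are not sequencing depths. The listed genes are nearly all genes that differ in this comparison, since a gene's position in the files followed its p-value (Spearman correlation 0.93 across 4981 tested genes). With edgeR's quasi-likelihood test and an adjusted p under 0.05, 98.7% of tested genes were called, 51.2% lower and 47.6% higher with GABA, and the groups did not overlap in 92.5% of genes. Replicate libraries differed by more than counting noise in every pair, and control replicate 3 stood farthest from the others, with 9.11% of counts on mitochondrially encoded genes against 6.66% to 7.74% in the other 5 libraries. Of 18 hepatocyte, 9 immune and 6 endothelial markers none is among the listed genes, so the labelled line could not be checked from them. Of 7 fibroblast and 7 kidney or cervix line markers, 2 and 3 were tested, with levels from 5.50 to 271 CPM, and all 5 were called without overlap between the groups. PDGFRB had a log2 fold change of -0.99 and COL3A1 of 0.66, and the kidney or cervix line markers PAX2, HOXB7 and HOXB9 were higher at 0.87, 0.26 and 0.22. Their part in the differences of the host transcripts was not tested.

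All 10 host transcripts had lower mean levels in the GABA libraries than in the controls. Their log2 fold changes (GABA over control) ran from -0.65 to -0.15, with a median of -0.47, beside -0.18 over all tested genes. Expressed as a percentage, the median difference was -27.9%. By the edgeR fit 9 of the 10 were called lower and 0 higher, beside the 51.2% of all tested genes called lower. SNHG6 was not called. In 9 of the 10 genes no GABA library overlapped a control library, beside 46.7% of tested genes that were lower without overlap. Because the genes were picked on this contrast and the files hold few genes without a difference, neither count says how the host genes compare with the rest of the transcriptome. The scaling was also made on these listed genes, so the 0 of the fold changes is not anchored by unchanged genes. In bulk RNA, fewer cells of a kind and less RNA per cell cannot be told apart.

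GAS5 (ENSG00000234741, chr1:173863900-173868882, minus strand), the host of 10 SNORD genes and 1 SNORA gene, was with SNHG29 the most abundant of the 10 per exon length. It stood at 1387, 1478 and 1454 CPM in control replicates 1, 2 and 3 and at 1073, 1064 and 1034 CPM in GABA replicates 1, 2 and 3. The lowest control lay far above the highest GABA library, and the spread within each group was small. The log2 fold change was -0.45 ± 0.06 (SE), with means of 1440 ± 47.5 and 1057 ± 20.2 CPM (SD, n = 3).

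SNHG29 (ENSG00000175061, chr17:16438822-16478678, plus strand), formerly LRRC75A-AS1 and the host of SNORD49A, SNORD49B and SNORD65, was close to GAS5 in level per exon length in the controls but differed less between the groups. Control libraries held 1344, 1443 and 1366 CPM and GABA libraries 1278, 1273 and 1189 CPM. The groups did not overlap, but the gap between them was narrower than the range within either group. Its log2 fold change of -0.15 ± 0.06 was the smallest of the 10. It was no longer called with the replicate block (edgeR adjusted p = 0.055), under both DESeq2 settings, or with control replicate 2 or any 1 GABA replicate left out (-0.17 to -0.12). Of its exon length 12.0% overlaps LRRC75A on the other strand, and the counting's use of strand is not given in the sources used here.

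SNHG1 (ENSG00000255717, chr11:62851988-62855914, minus strand), the classic host whose exons are less conserved than its snoRNAs, had the next smallest difference among the called genes. Its levels were 815, 767 and 776 CPM in the controls and 699, 692 and 672 CPM with GABA. The groups did not overlap, and the log2 fold change was -0.19 ± 0.06. SLC3A2, the heavy chain of the amino acid transporter 4F2, starts 188 bp away on the other strand, and its log2 fold change was -0.18 ± 0.07 (1904 ± 146 to 1687 ± 64.0 CPM).

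**Figure D1:**
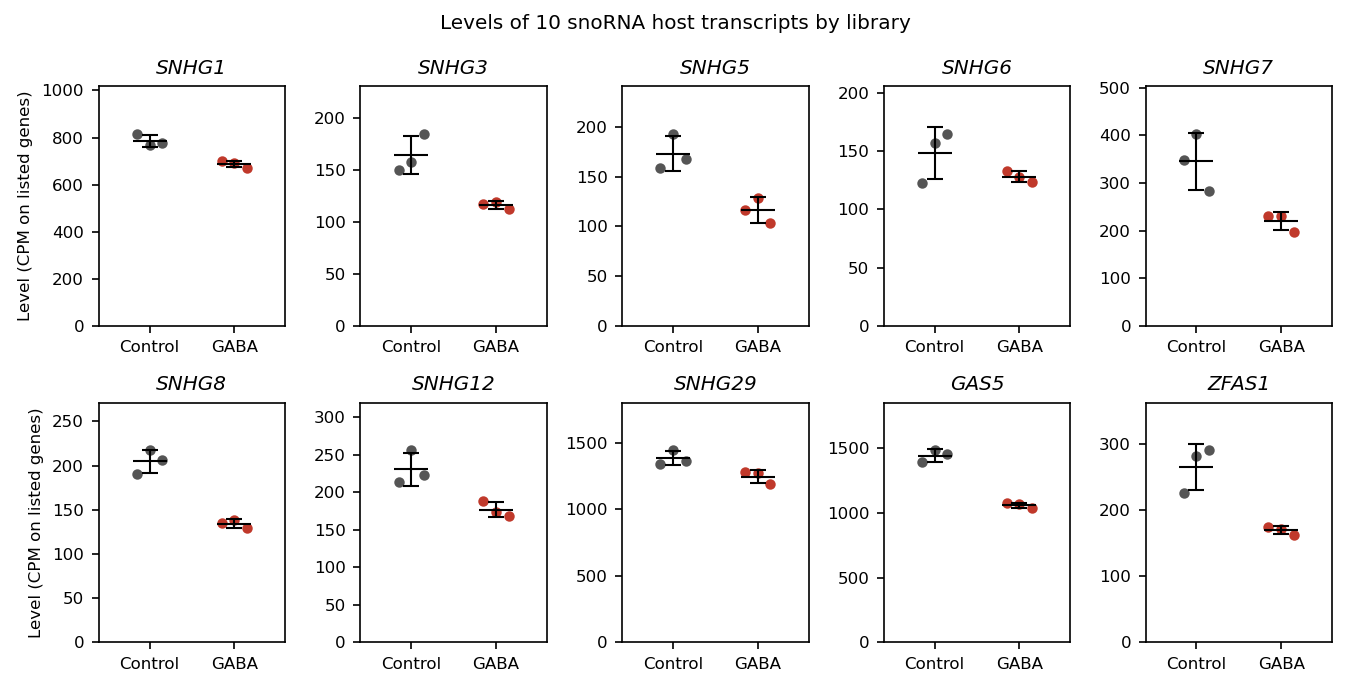
Level of each host transcript in CPM on the listed genes (vertical axis, from 0, separate for each gene) in the 3 control and 3 GABA libraries. Points are libraries, long bars means and whiskers SD over 3 libraries; SNHG6 is the 1 gene whose groups overlap.

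SNHG7, SNHG8 and SNHG3 hold SNORA genes only, and all were among the larger differences. SNHG7 (ENSG00000233016, chr9:136721366-136728184, minus strand), host of SNORA17A and SNORA17B, had 349, 403 and 284 CPM in the controls and 230, 231 and 197 CPM with GABA. The controls were spread widely, with replicate 3 the lowest, yet each stayed above every GABA library. Its log2 fold change of -0.65 ± 0.11 was the largest of the 10, and 25.2% of its exon length overlaps DIPK1B on the other strand.

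SNHG8 (ENSG00000269893, chr4:118278709-118279823, plus strand), host of SNORA24, had 191, 217 and 207 CPM in the controls and 134, 139 and 129 CPM with GABA. The groups were well apart, and the log2 fold change was -0.61 ± 0.07. SNHG3 (ENSG00000242125, chr1:28505980-28510892, plus strand), host of SNORA73A and SNORA73B, had 151, 158 and 185 CPM in the controls and 117, 119 and 112 CPM with GABA. Here the GABA libraries were close together and the controls were not. The log2 fold change of SNHG3 was -0.50 ± 0.09. Its exons overlap RCC1, a mitotic regulator that begins 37 bp from it on the same strand. Reads of the shared exons cannot be assigned to 1 gene, and RCC1 itself is not among the listed genes.

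ZFAS1 (ENSG00000177410, chr20:49278178-49295738, plus strand), host of SNORD12, SNORD12B and SNORD12C, lies head to head with ZNFX1. It had 226, 281 and 290 CPM in the controls and 175, 171 and 163 CPM with GABA, a log2 fold change of -0.65 ± 0.09. Control replicate 1 was the lowest control, still above all GABA libraries.

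SNHG5 (ENSG00000203875, chr6:85660950-85678748, minus strand), host of SNORD50A and SNORD50B, had 159, 193 and 168 CPM in the controls and 117, 129 and 103 CPM with GABA. The groups did not overlap, and the GABA libraries varied as much as the controls did. Its log2 fold change was -0.58 ± 0.10. SNHG12 (ENSG00000197989, chr1:28578538-28583132, minus strand), host of SNORA16A, SNORA44, SNORA61 and SNORD99, had 213, 255 and 223 CPM in the controls and 189, 174 and 169 CPM with GABA. All GABA libraries were again below the controls, with a log2 fold change of -0.38 ± 0.08.

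SNHG6 (ENSG00000245910, chr8:66921684-66926398, minus strand), host of SNORD87, had 123, 157 and 165 CPM in the controls and 133, 128 and 123 CPM with GABA. Control replicate 1 was level with the lowest GABA library, and the other controls lay above all GABA libraries. Its log2 fold change was -0.21 ± 0.10 and was not called. Without control replicate 1 it was -0.33 and called, and without control replicate 3 it was -0.13 and not called. MCMDC2 overlaps 29.3% of its exon length on the other strand.

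By the snoRNA family in the introns, the 3 hosts with SNORA genes only had log2 fold changes of -0.65 to -0.50 (median -0.61). The 5 hosts with SNORD genes only ran from -0.65 to -0.15 (median -0.21), and the 2 with both were at -0.45 and -0.38. The ranges of the families overlap through ZFAS1 and SNHG5, and with so few genes no difference between families was tested.

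Per kilobase of annotated exons, a scale that allows levels to be compared between genes, the 10 transcripts spanned 396 ± 13.1 CPM per kb (GAS5) to 40.3 ± 4.42 (SNHG3) in the controls. SNHG29 followed GAS5 at 368 ± 13.8, and the control libraries of these genes overlapped. SNHG8 (222 ± 14.4) and SNHG1 (209 ± 6.80) came next and overlapped with each other, but lay below SNHG29 and above all others. SNHG6 (119 ± 17.8) and ZFAS1 (118 ± 15.5) did not differ beyond their spread. SNHG7 (79.4 ± 13.7) overlapped with SNHG5 (61.7 ± 6.26) and SNHG5 with SNHG12 (54.1 ± 5.18), and SNHG3 lay below SNHG12 in all libraries. The exon length is the union of all annotated transcripts, many of which retain introns, so these levels are approximate.

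With GABA the order was not the same. SNHG29 stood first at 332 ± 13.3 CPM per kb and GAS5 next at 291 ± 5.56, with no overlap between them. SNHG1 (183 ± 3.68) lay above SNHG8 (145 ± 5.44), again without overlap, whereas their control libraries overlapped with SNHG8 higher on average. SNHG6 (103 ± 3.90) lay above ZFAS1 (75.6 ± 2.76) in all GABA libraries. SNHG12 and SNHG5 shared 41.5 ± 2.44 and 41.4 ± 4.58.

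**Figure D2:**
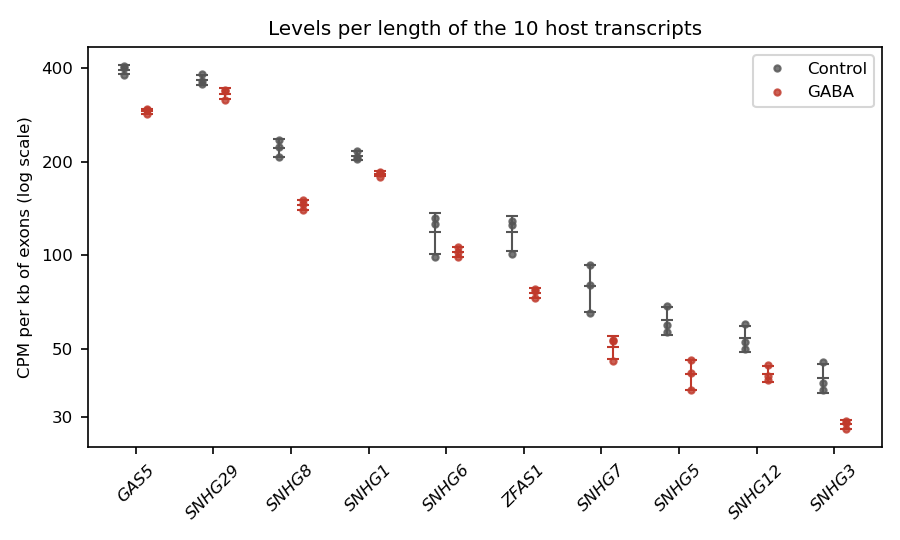
Level per kilobase of annotated exons (log-scaled vertical axis, CPM per kb) for the 10 host transcripts, ordered by the control mean. Points are libraries, horizontal marks means and whiskers SD over 3 libraries; GAS5 is above SNHG29 on average in the controls (396 and 368) and below it with GABA (291 and 332).

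A ratio of counts within a library does not depend on how libraries are scaled. The count of GAS5 was 1.03, 1.02 and 1.06 times that of SNHG29 in control replicates 1, 2 and 3, and 0.840, 0.836 and 0.870 times in the GABA replicates. GAS5 was thus counted more often than SNHG29 in every control library and less often in every GABA library. For SNHG8 the ratio to SNHG29 was 0.142, 0.150 and 0.151 in the controls and 0.105, 0.109 and 0.108 with GABA. Of the 9 other members, 7 had a lower ratio to SNHG29 in every GABA library than in any control. The exceptions were SNHG1 (0.532 to 0.607 in the controls, 0.543 to 0.565 with GABA) and SNHG6 (0.0913 to 0.120 and 0.100 to 0.104). These ratios were chosen after the values were seen, and SNHG29 had the smallest difference of all members (log2 fold change -0.15). Lower ratios to it therefore restate the fold changes above and are no separate support for them. They describe host transcripts that did not all differ by the same factor.

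As a share of all counts on the listed genes, the 10 transcripts together took 0.496%, 0.537% and 0.501% in the controls and 0.418%, 0.412% and 0.393% with GABA. GAS5 and SNHG29 made up 54.6% to 55.1% of this sum in the controls and 56.7% to 57.1% with GABA, so the sum mostly follows these 2 genes. Control replicate 1 was the lowest control for 8 of the 10 genes, and control replicate 2 was the highest for 6. In the treated group, GABA replicate 3 was the lowest library for all 10. The median coefficient of variation over the members was 9.86% in the controls and 3.78% with GABA. The same measure was 7.35% and 3.48% over the 2088 tested genes with control means of 100 to 2000 CPM, so a tighter GABA group was also seen over these genes.

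**Figure D3:**
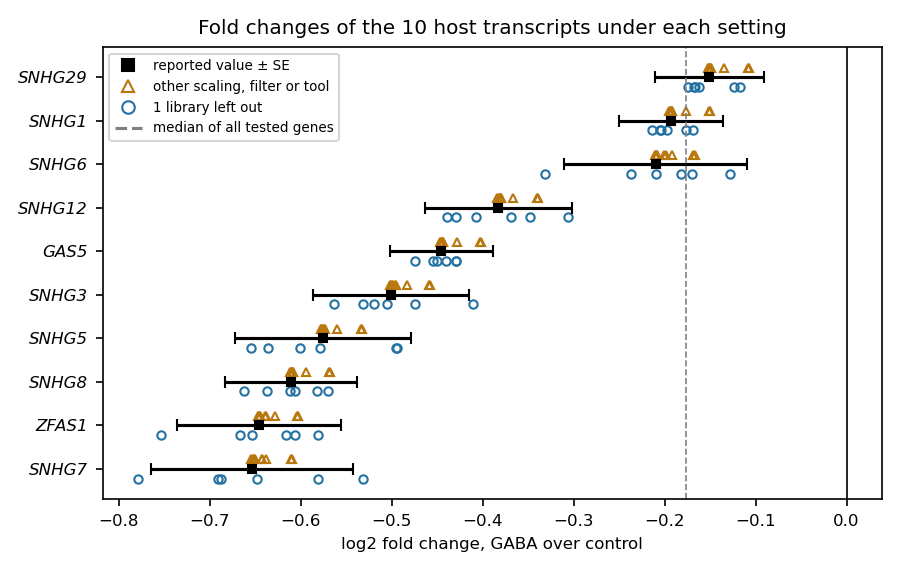
Log2 fold change (GABA over control) of each host transcript. Squares with whiskers are the reported value and its SE, triangles the same quantity under other scalings, filters or tools, and circles with 1 library left out; every value lies below 0, and SNHG29, SNHG1 and SNHG6 lie around the median of all tested genes (-0.18, dashed).

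Other noncoding hosts of snoRNAs in the files were mostly lower as well. From a list of 22 further host lncRNAs 4 were tested, and 3 fell while 1 rose. EPB41L4A-AS1, the host of SNORA13, had a log2 fold change of -0.32 ± 0.09 (131 ± 10.3 to 105 ± 10.1 CPM), and DANCR, the host of SNORA26, had -0.25 ± 0.10 (93.6 ± 12.6 to 78.9 ± 1.77). SNHG18 had -0.66 ± 0.20 at 8.21 ± 0.73 and 5.19 ± 0.65 CPM. SNHG11 was the exception at 0.34 ± 0.11, with 49.3, 50.6 and 53.5 CPM in the controls and 70.5, 69.4 and 55.1 with GABA; without GABA replicate 1, or without GABA replicate 2, it was no longer called. Searching the annotation for listed noncoding genes with a snoRNA in an intron added AC007240.2 and LINC00888, both called lower, so that 5 of 6 such genes outside the members were lower and 1 higher (median -0.37). That count of lower genes was 3 with DESeq2 or DESeq2 size factors, and also without control replicate 3 or any 1 GABA replicate. Among 52 other long noncoding genes that averaged 50 CPM or more, a comparison added after the values were seen, 38 were lower and 13 higher (median -0.32). Over all 383 other long noncoding genes tested, most of them below that level, 178 were lower and 203 higher (median 0.38).

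Protein-coding genes annotated with an intronic snoRNA moved both ways. Of 83 tested protein-coding genes with an intronic snoRNA, 47 were lower, 30 higher and 6 not called (56.6% lower, median -0.18), beside 51.2% lower over all tested genes. With DESeq2, 31 of them were lower, and without GABA replicate 1, 29 were. The search, also used for the noncoding genes above, took any snoRNA that GENCODE 29 places in an intron. It includes entries such as U3 in LAMB1 and RF00275 in ITGB8, and whether these are processed was not tested. In GAS5 it finds 0 snoRNAs, where RefSeq places 11, so these genes and the members were not defined alike. RABGGTB, a geranylgeranyl transferase subunit and host of SNORD45 genes, fell by 0.95 ± 0.07 on the log2 scale, and IARS1, the isoleucyl-tRNA synthetase, by 0.61 ± 0.06. RBMX, a splicing regulator and host of SNORD61, rose by 0.86 ± 0.07. Of 6 listed snoRNAs 3 had enough counts to be tested. SNORA71C was at 2.73 ± 0.27 CPM in control and 7.86 ± 1.10 CPM in GABA libraries, and SNORD14A at 2.88 ± 1.14 and 0.797 ± 0.42. RF00432, a snoRNA known by its Rfam family, was at 3.66 ± 1.02 and 1.78 ± 0.43 CPM. None lies in a member, and the library preparation named in the labels is not stated to retain RNAs of this size.

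Genes of the snoRNP, the particle in which a snoRNA works, were seldom listed. Of 21 such genes 6 were tested, with 4 higher and 2 lower (median 0.27). RUVBL2, an ATPase of snoRNP assembly, rose by 0.49 ± 0.10, and TGS1, which hypermethylates the caps of small RNAs, by 0.34 ± 0.10. ZNHIT6, a box C/D assembly factor, fell by 0.26 ± 0.07. In the RNA decay list, which includes the exosome that trims snoRNAs, 3 of 5 tested genes rose and 2 fell. EXOSC6 had -0.65 ± 0.07, the nuclear exonuclease XRN2 had 0.29 ± 0.06 and EXOSC4 had 0.53 ± 0.13.

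NMD factors and NMD-sensitive transcripts had medians on opposite sides of 0. Of 23 NMD factors 9 were tested, with 6 higher, 2 lower and 1 not called (median 0.27). UPF1, the central NMD helicase, stood at 323, 326 and 284 CPM in the controls and at 466, 456 and 471 CPM with GABA. No GABA library came near a control, and the log2 fold change was 0.58 ± 0.07. SMG5, which acts on phosphorylated UPF1, rose by 0.34 ± 0.07, and the decapping enzyme gene DCP2 fell by 0.44 ± 0.07. In the list of NMD-sensitive transcripts 12 of 15 tested genes were lower and 3 higher (median -0.35), with DDIT3, the stress factor CHOP, at -0.83 ± 0.06, TGIF1 at -0.50 ± 0.07 and UPP1 at -0.46 ± 0.07. Many genes of that list are also targets of the stress factor ATF4. Whether NMD activity moved with the host transcripts was not tested.

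Cytosolic ribosomal protein genes, a class whose mRNAs commonly carry a TOP tract, were taken by symbol, paralogs included. Of the 31 tested, 24 were lower, 3 higher and 4 not called (median -0.27). No tract was looked for in these genes or in the other TOP mRNAs below. RPS27A had -0.42 ± 0.06 and RPLP1 -0.39 ± 0.06, while RPL26L1, a paralog of RPL26, had 0.46 ± 0.07. Their reads may be shared with processed pseudogenes. As a share of counts, the listed ribosomal protein genes held 4.23% to 4.39% in the controls and 3.61% to 3.84% with GABA, lower in the same libraries as the host transcripts. Of 7 other tested TOP mRNAs 5 were lower, 1 higher and 1 not called (median -0.19), or 3 lower under both DESeq2 settings or with GABA replicate 3 left out, and 2 lower with GABA replicate 1 left out. The translation factor EIF4B had -0.24 ± 0.06, the histone chaperone NAP1L1 -0.35 ± 0.11 and vimentin (VIM) -0.26 ± 0.08. In the list of mTORC1 and LARP1, which control TOP mRNAs, 4 of 6 tested genes were higher, 1 lower and 1 not called (median 0.30). LARP1 itself was not among the 6, and the median pools parts of mTORC1 with a kinase it acts on and with inhibitors of it. MTOR rose by 0.31 ± 0.07 and MLST8, a subunit of its complexes, by 0.57 ± 0.09. DDIT4, an inhibitor of mTORC1, fell by 1.20 ± 0.12 and was the 1 called lower; without control replicate 3, 2 were.

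**Figure D4:**
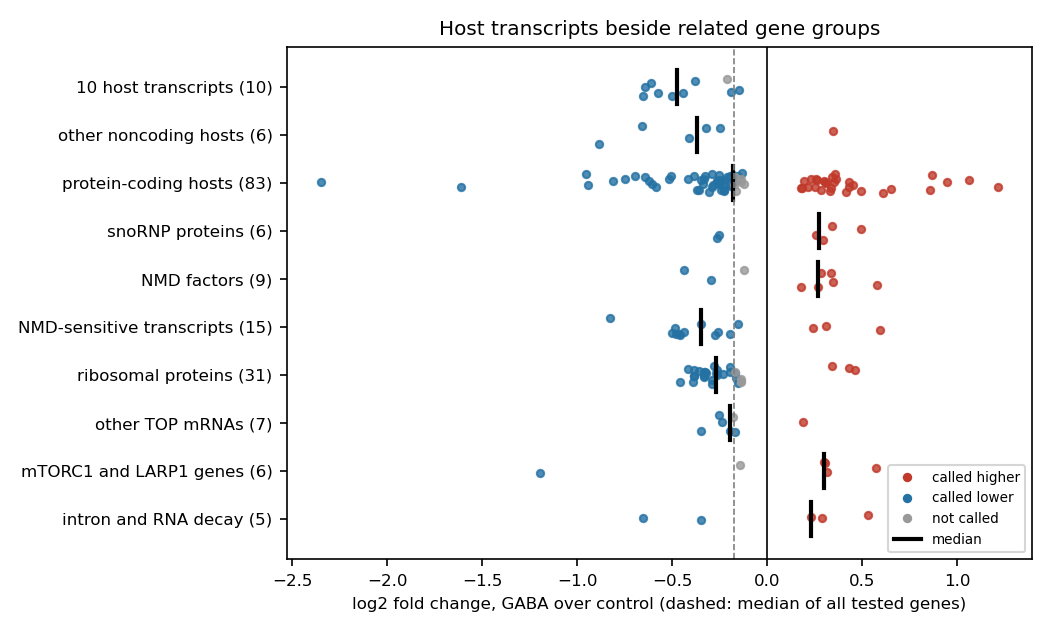
Log2 fold change (GABA over control) of each tested gene in the 10 host transcripts and 9 related groups, with the number of genes in brackets. Each point is a gene, coloured by its call, and thick bars are medians; the median of the host transcripts, which were chosen on this contrast, is -0.47, and the snoRNP, NMD factor, mTORC1 and RNA decay groups have medians above 0.

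Among the 3060 other tested genes that averaged 50 CPM or more, those whose log2 CPM over the 6 libraries followed the mean standardised profile of the members most closely were AC244153.1, MAFG, TBL2, HEBP2 and NDUFA12. Pearson correlations were 0.997, 0.997, 0.996, 0.995 and 0.994 over 6 libraries. MAFG, a small MAF transcription factor, had a log2 fold change of -0.43 ± 0.07, and NDUFA12, a subunit of respiratory complex I, had -0.43 ± 0.07. The points share the split into 2 groups, and 17.1% of these genes correlated above 0.9, so the ranking mainly finds genes with a similar difference and a similar order of libraries.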

How the data were processed

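Total RNA of 3 control and 3 GABA cultures of Huh7 was sequenced. The deposited values are whole-number read counts per Ensembl gene, 1 file per library, and are unnormalized by their header and values. CASAVA 1.8, Bowtie 0.12.2 and the hg38 build are named per the submitters' processing notes; the counting program, annotation release and use of strand are not given in the sources used here. Symbols came from a gene name table and, for 277 of 5187 genes, from GENCODE 29; positions, exon overlaps and intronic snoRNAs came from GENCODE 29, with further snoRNA positions and promoters from RefSeq (GRCh38.p14).

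Counts were tested with edgeR 4.0.16 in R 4.3.3 (filterByExpr with a minimum count of 10 and total of 15, TMM, robust quasi-likelihood fit, Benjamini-Hochberg over 4981 genes, threshold 0.05). SE was derived from the fit as the absolute log2 fold change divided by the square root of the quasi-likelihood F statistic. Alternatives were other scalings and filters, DESeq2 1.42.0, limma-voom (limma 3.58.1), the replicate number as a block, and each library left out; a scaling without mitochondrial genes was added after the data were seen. The code was tested on simulated data. The members and lists were chosen with earlier results of these data known. Genes were named by rule: all members, listed SNHG genes, listed neighbours, up to 3 called genes per list by p, and the 5 most similar profiles; some of the genes it takes are not named. TATAA, the ratios to SNHG29 and the noncoding genes at 50 CPM or more were chosen after values were seen. Tables and figures used Python 3.11.15, pandas 2.3.3 and matplotlib 3.10.9.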

Additional observations from a re-analysis of the deposited data

How the results depend on the processing

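All 10 host transcripts stayed below 0 in each of the 150 gene and setting values, and the 9 called members kept their call in 128 of 135. SNHG29 accounts for the 7 that lost it, with log2 fold changes of -0.11 with DESeq2 and with DESeq2 size factors in edgeR, -0.15 with the replicate block and -0.17 to -0.12 with GABA replicate 1, 2 or 3 or control replicate 2 left out. SNHG6 was not called in 14 of its 15 values and was called without control replicate 1 (-0.33). The members called lower numbered 8 to 10 with 1 library left out, and the genes called overall 4025 to 4735, beside 4918. The replicate block gave 4823 genes and 8 members; same-numbered libraries did not deviate together (correlations 0.00075, -0.093 and -0.037), and the labels do not say that a number marks cultures handled together. A C-led run within 20 bases of the annotated start was found in 8 of 9 promoters with a minimum of 4 bases (71.4% of all promoters). With a minimum of 8 bases it was found in 3 (15.5%). With a minimum of 6 bases and the leading C within 10 bases of the start, 4 of 9 had a run (20.8%). DESeq2 size factors moved the median of all genes from -0.18 to -0.13. Every scaling used only the listed genes, nearly all of which were called, so unchanged genes do not anchor 0 in any setting. A value below 0 is therefore relative to the listed genes, which matters most for small differences such as those of SNHG29, SNHG1 and SNHG6. Because the files list few genes without a difference, no setting shows how many genes did not respond, and the calls of the members were largely fixed by how they were chosen.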
